A study of Mus musculus with 6 samples.

Results

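The genes described here are 39 enzymes and regulators that make fatty acids, cholesterol and glycerolipids. They were chosen by name from the pathway, with earlier results of these data known. Each was found by gene symbol among the 24346 genes of the series. Counts of the 39 set beside all tested genes below are therefore a description. All 39 averaged 1 FPKM or more across the 6 kidney libraries and were among the 11737 genes tested. FPKM expresses a level as fragments scaled by transcript length and by the number of mapped fragments. The samples are kidney RNA from mice that lost 1 kidney by surgery (unilateral nephrectomy), 3 given 0.1% D-serine in their drinking water and 3 given water with no addition (vehicle). All were kept on a serine-free diet with their assigned water for 1 week before surgery, and kidney was taken 2 days after it. D-serine is the enantiomer of L-serine, the form built into proteins. The sources used here do not give strain, sex or age. They also leave unstated whether every sample is a separate animal, so the p-values below measure only the spread between these samples, which may be technical.

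Lipid synthesis starts from acetyl-CoA in the cytosol. It is carboxylated to malonyl-CoA and built into palmitate by fatty acid synthase, and desaturases and elongases then modify the chain. Acyl chains added in turn to a glycerol backbone, with removal of a phosphate, give triglyceride, and the mevalonate pathway leads from the same acetyl-CoA through squalene to cholesterol. SREBP transcription factors switch on most of these genes. The sterol-sensing escort SCAP carries SREBPs from the endoplasmic reticulum to the Golgi for cleavage when sterols are scarce, and INSIG proteins hold the complex back when sterols are plentiful. In the kidney, proximal tubule cells burn fatty acids as their main fuel.

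None of the 39 genes passed limma, a linear model of log2(FPKM + 1) over all genes, at a Benjamini-Hochberg adjusted p of 0.05, where 0.0767% of all tested genes passed. At an unadjusted p under 0.05, 16 of the 39 (41.0%) were lower with D-serine, against 14.6% of all tested genes, and 1 was higher, against 13.1%. In 18 of the 39 (46.2%) every D-serine library lay below every vehicle library, against 19.4% of all tested genes, and in 2 every D-serine library lay above, against 16.5%. The median log2 difference, D-serine minus vehicle, was -0.24 over the 39 genes and -0.0078 over all tested genes, and it was below 0 in 26 of the 39, against 51.1% of all tested genes. Levels summed over the 39 genes were 1263, 1137 and 1133 FPKM in D-serine replicates 1 to 3, against 1370.0, 1441 and 1353 FPKM in vehicle replicates 1 to 3. The groups of summed levels did not overlap. Such a sum weights the highest genes most, and Hmgcs1, which overlapped by itself, averaged 284 FPKM. Split by role, sums over the mevalonate genes and over the squalene to cholesterol genes overlapped between groups, and the others did not. The call of 0 rested on the fit: 2 of the 39, Scd1 and Lpin1, passed, both lower, when small RNA genes were left out (1.58% of all genes then tested passed as lower and 1.27% as higher), and 2, Scd1 and Gpam, without D-serine replicate 3, where 3.72% of all tested genes passed. Without vehicle replicate 1, 10 of the 39 were lower at an unadjusted p under 0.05, against 8.85% of all tested genes. Every D-serine library lay above in 6 of the 39 without D-serine replicate 3, a share below the 24.1% of all tested genes in that fit, and in 4 of the 39 without vehicle replicate 2 or without vehicle replicate 3, against 20.4% and 22.5%.

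**Figure D1:**
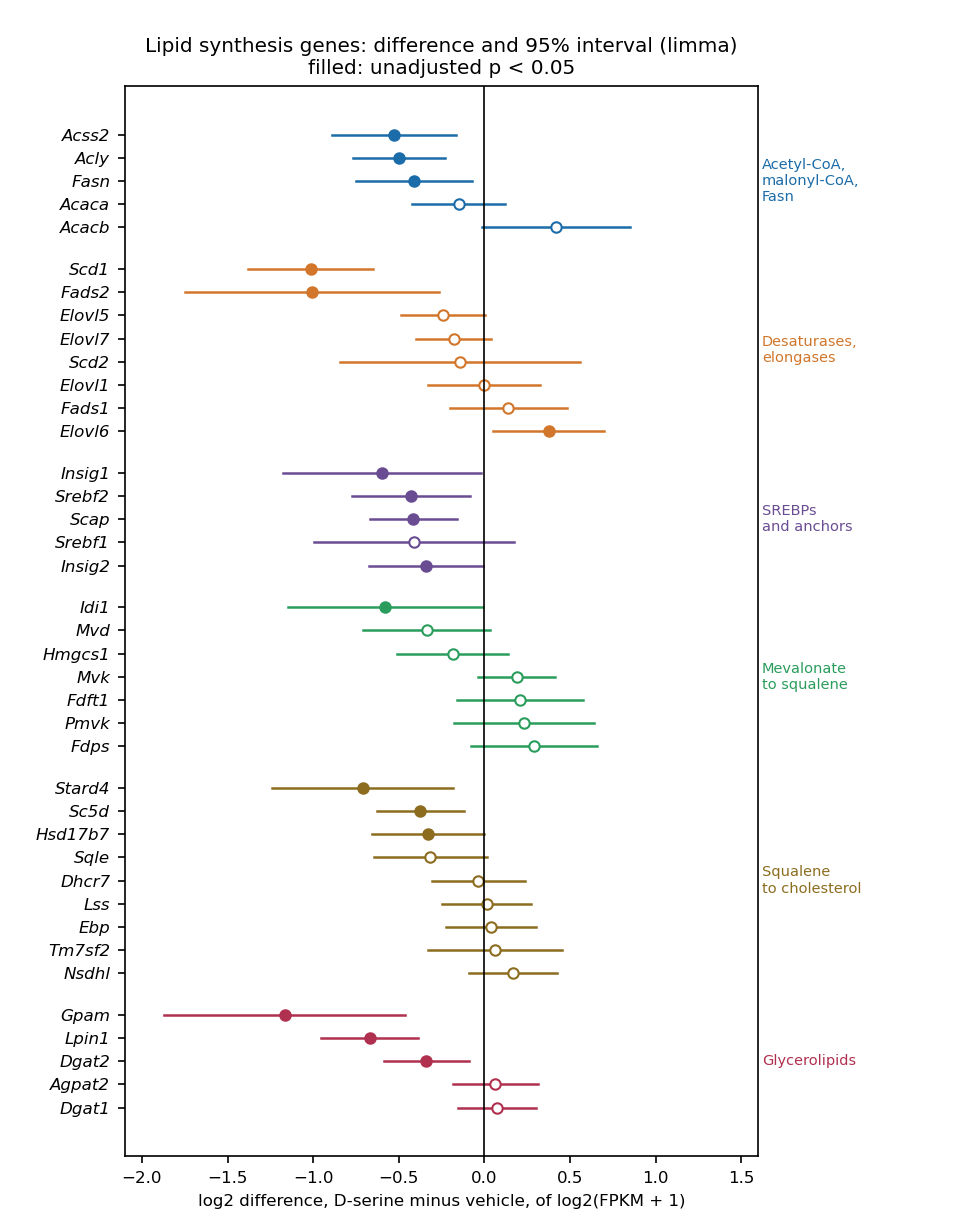
Difference of each of the 39 genes (x axis, D-serine minus vehicle in log2(FPKM + 1), n = 3 each) by role, with bars for the limma 95% interval and filled points for an unadjusted p under 0.05. Of the 17 filled points, 16 lie below 0, and Elovl6 at 0.38 is the exception.

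Levels per transcript length spread widely among the 39 genes. The highest mean over the 6 libraries was that of Hmgcs1, at 284 FPKM, followed by Ebp at 109 FPKM and Acss2 at 101 FPKM, and 4 genes, Hsd17b7, Lss, Acaca and Elovl6, averaged under 5 FPKM. Fasn, the fatty acid synthase itself, averaged 8.50 FPKM. Sequencing depth was shallow. Judged roughly from the spacing of low values, libraries held 7060000 to 8640000 mapped fragments, which is about 7.81 fragments for each kilobase of transcript at 1 FPKM, and D-serine replicate 2 was the shallowest, at 0.836 of the depth of vehicle replicate 1.

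Acetyl-CoA supply and chain building come first in the pathway. Of 5 genes, 3 (60%) were lower and 0 higher at an unadjusted p under 0.05, against 14.6% and 13.1% of all tested genes. Their median log2 difference was -0.41. Acly, ATP citrate lyase, which splits exported citrate into acetyl-CoA, was at 28.3, 22.2 and 28.0 FPKM in the D-serine libraries and at 37.9, 37.4 and 36.3 FPKM in the vehicle libraries. The vehicle libraries lay within a narrow band and all 3 D-serine libraries lay below it (log2 difference -0.50 ± 0.11 SE, limma adjusted p = 0.074). Acss2, which makes acetyl-CoA from free acetate, was at 89.5, 65.1 and 94.96 FPKM with D-serine and at 130.0, 111.5 and 116 FPKM with vehicle, again without overlap (-0.53 ± 0.15, adjusted p = 0.098 in limma). Fasn stood at 8.88, 6.22 and 6.48 FPKM with D-serine and at 9.13, 9.42 and 10.9 FPKM with vehicle. D-serine replicate 1 came close to the vehicle libraries, and the difference was -0.41 ± 0.14 (limma adjusted p = 0.13). The acetyl-CoA carboxylases make malonyl-CoA: Acaca, the lipogenic form, overlapped between groups at 2.48 to 3.06 FPKM with D-serine and 2.92 to 3.24 FPKM with vehicle. Acacb, whose product at the mitochondrial surface restrains fatty acid entry, also overlapped, at 4.23 to 7.19 FPKM with D-serine and 3.502 to 4.69 FPKM with vehicle. Only D-serine replicate 3 lay within the vehicle range. The log2 difference of Acacb was the highest of the 39 genes, at 0.42 ± 0.18 SE (limma unadjusted p = 0.055, adjusted p = 0.19). The ratio of Acacb to Acaca within a library was 2.07, 2.72 and 1.71 with D-serine and 1.42, 1.45 and 1.08 with vehicle, groups that did not overlap.

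Desaturases and elongases went both ways. At an unadjusted p under 0.05, 2 of 8 (25%) were lower and 1 higher, against 14.6% and 13.1% of all tested genes. The median log2 difference was -0.16. That median was -0.079 after removal of a trend on transcript length and GC content and -0.099 without vehicle replicate 2. Scd1, the stearoyl-CoA desaturase that makes oleate, was at 4.56, 5.11 and 4.59 FPKM in the D-serine libraries and at 10.9, 8.34 and 13.1 FPKM in the vehicle libraries. The D-serine mean was 0.441 of the vehicle mean, and the groups lay far apart (log2 difference -1.01 ± 0.16 SE, limma adjusted p = 0.057). Its neighbour on chromosome 19, Scd2, a related desaturase, ranged from 18.4 to 42.7 FPKM with D-serine and from 27.0 to 41.9 FPKM with vehicle, with full overlap. Scd1 and Scd2 are closely related in sequence, and reads could be split between them, so both values are uncertain. Fads2, the delta-6 desaturase of polyunsaturated fatty acid synthesis, was at 41.3, 16.4 and 35.6 FPKM with D-serine and at 69.0, 53.3 and 56.3 FPKM with vehicle. D-serine replicate 2 was far the lowest, yet the other D-serine libraries also lay below all vehicle libraries (-1.01 ± 0.32, limma adjusted p = 0.11, and -0.61 without D-serine replicate 2). Fads1, the delta-5 desaturase that acts after it, overlapped at 23.1 to 33.3 FPKM with D-serine and 22.9 to 26.8 FPKM with vehicle. Within a library the ratio of Fads2 to Fads1 was 1.24, 0.707 and 1.39 with D-serine and 2.87, 1.99 and 2.46 with vehicle.

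Among the elongases, Elovl6, which extends palmitate to stearate, was the 1 gene of the 39 that was higher at an unadjusted p under 0.05. It stood at 2.48, 2.69 and 2.63 FPKM with D-serine and at 1.38, 2.03 and 1.96 FPKM with vehicle (log2 difference 0.38 ± 0.14 SE, limma adjusted p = 0.14). Vehicle replicate 1 was the low library here, and the groups did not overlap. Elovl5, an elongase of polyunsaturated chains, ran from 17.3 to 21.6 FPKM with D-serine and from 21.9 to 23.5 FPKM with vehicle. Elovl7 ran from 16.6 to 18.5 FPKM with D-serine and from 19.1 to 21.5 FPKM with vehicle, also without overlap. Elovl1, which makes very long saturated chains, averaged 60.5 ± 8.81 FPKM with D-serine and 60.3 ± 6.89 FPKM with vehicle (SD, n = 3 each), with a 95% interval of the log2 difference from -0.33 to 0.33.

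**Figure D2:**
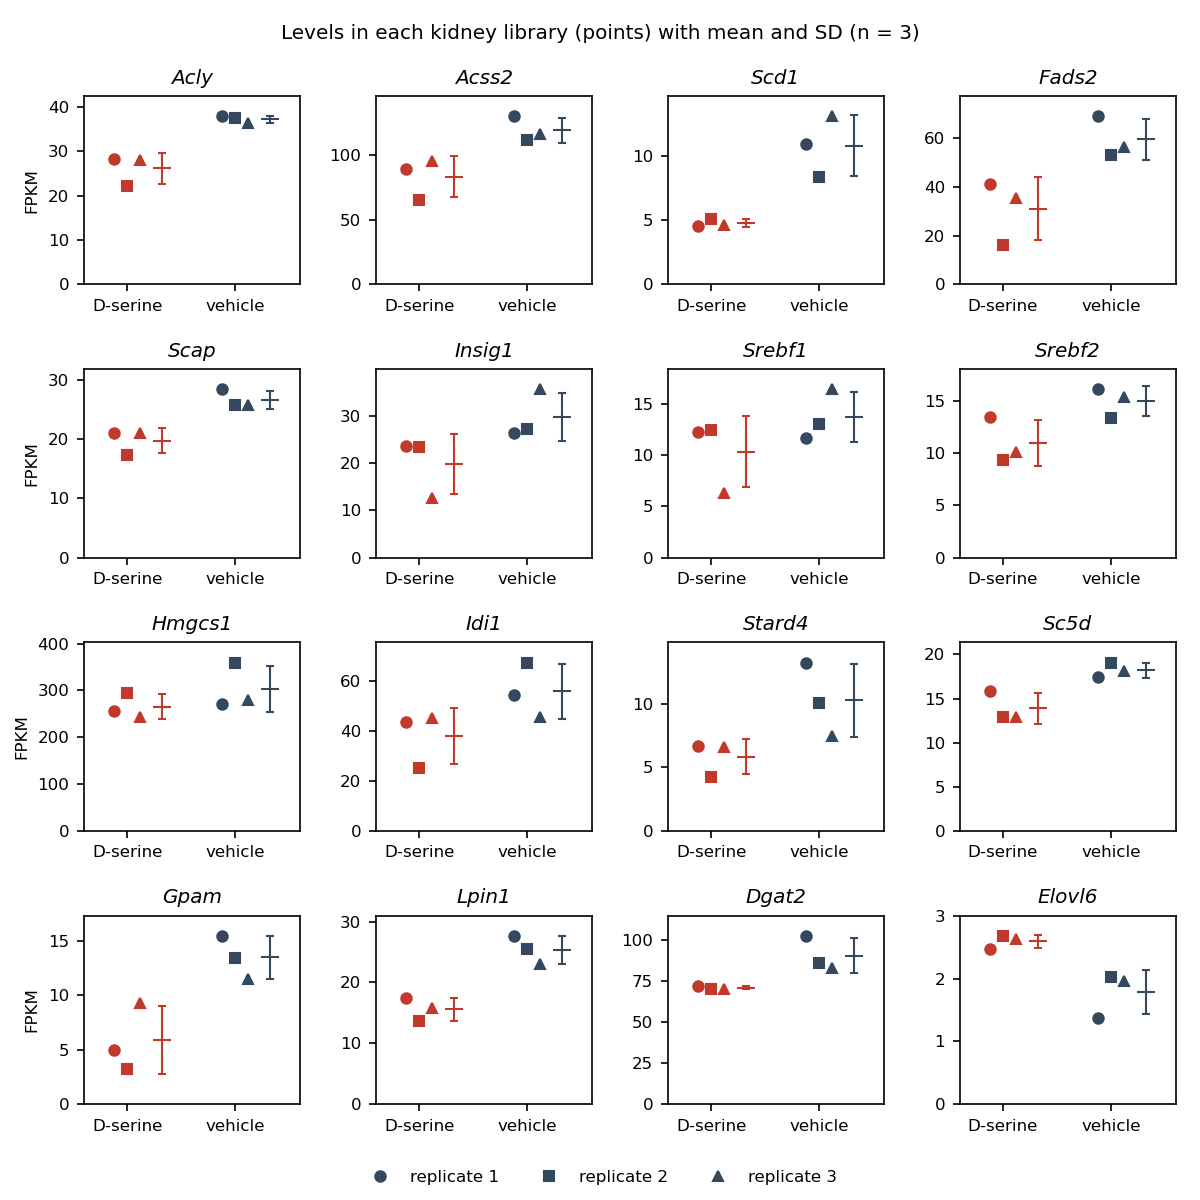
FPKM (y axis, from 0) of 16 of the genes in each D-serine and vehicle library, with markers for the replicate and bars for the mean and SD (n = 3). Scd1, Lpin1 and Acly show groups that stand apart, while Hmgcs1 and Srebf1 overlap and Elovl6 is higher with D-serine.

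The genes of the SREBP system were all 5 on the low side, where 51.1% of all tested genes lay. At an unadjusted p under 0.05, 4 of the 5 (80%) were lower, against 14.6% of all tested genes. The median log2 difference was -0.41. Scap, the escort, was at 21.03, 17.3 and 21.01 FPKM with D-serine and at 28.4, 25.7 and 25.7 FPKM with vehicle. Its groups stood apart (log2 difference -0.41 ± 0.11 SE, limma adjusted p = 0.084). Srebf2, which encodes the SREBP of cholesterol genes, was at 13.5, 9.37 and 10.1 FPKM with D-serine and at 16.1, 13.4 and 15.4 FPKM with vehicle. D-serine replicate 1 and vehicle replicate 2 nearly coincided, so the groups overlapped (-0.43 ± 0.15, adjusted p = 0.12 in limma). Srebf1, which encodes the SREBP of fatty acid genes, was at 12.3, 12.4 and 6.34 FPKM with D-serine and at 11.6, 13.045 and 16.4 FPKM with vehicle (-0.41 ± 0.25, limma adjusted p = 0.31). Only D-serine replicate 3 lay below the vehicle range, and without it the difference was -0.13.

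Insig1, itself a target of SREBPs, was at 23.7, 23.4 and 12.5 FPKM with D-serine and at 26.4, 27.2 and 35.6 FPKM with vehicle (log2 difference -0.60 ± 0.25 SE, limma adjusted p = 0.17). The groups did not overlap, but D-serine replicate 3 carried much of the distance, and without it the difference was -0.31. Insig2, the form that SREBPs do not induce, was at 16.1, 12.9 and 15.2 FPKM with D-serine and at 17.9, 22.6 and 16.4 FPKM with vehicle (-0.34 ± 0.14, adjusted p = 0.17 in limma). The ratio of Insig1 to Insig2 overlapped between groups, as did that of Srebf1 to Srebf2.

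The mevalonate steps to squalene had no common direction. At an unadjusted p under 0.05, 1 of 7 genes (14.3%) was lower, near the 14.6% of all tested genes. None was higher, against 13.1% of all tested genes. The median log2 difference of the 7 genes was 0.19, and 0.023 with a trend on transcript length and GC content removed and 0.049 without D-serine replicate 1. Hmgcs1, the cytosolic HMG-CoA synthase, was at 256, 295 and 244 FPKM with D-serine and at 271, 359 and 279 FPKM with vehicle. The groups overlapped (log2 difference -0.19 ± 0.14 SE, limma adjusted p = 0.40, 95% interval -0.51 to 0.14), and the difference was -0.058 without vehicle replicate 2 and -0.10 after removal of the length and GC trend. Idi1, which isomerises isopentenyl diphosphate, was at 43.5, 25.04 and 45.1 FPKM with D-serine and at 54.7, 67.5 and 45.7 FPKM with vehicle. The groups did not overlap, but D-serine replicate 3 and vehicle replicate 3 lay side by side, and the low value of D-serine replicate 2 widened the difference (-0.58 ± 0.24, adjusted p = 0.18 in limma, and -0.31 without that library). Mvd, mevalonate diphosphate decarboxylase, was at 50.6, 34.0 and 46.8 FPKM with D-serine and at 54.0, 60.1 and 50.8 FPKM with vehicle (-0.34 ± 0.16, limma adjusted p = 0.21). The groups of Mvd touched without overlap, and the difference was -0.17 without D-serine replicate 2 and -0.52 after removal of the length and GC trend. Mvk, mevalonate kinase, lay the other way, at 6.61, 7.10 and 6.45 FPKM with D-serine and 5.99, 5.34 and 6.02 FPKM with vehicle, without overlap (0.19 ± 0.10, limma adjusted p = 0.24). After removal of the same trend its difference was 0.080. Fdps and Fdft1, which make farnesyl diphosphate and squalene, had their highest values in D-serine replicate 1, at 42.1 and 16.0 FPKM. The other D-serine libraries held 31.6 and 27.1 FPKM of Fdps, against 25.8 to 27.7 FPKM with vehicle, and 12.4 and 10.04 FPKM of Fdft1, against 10.4 to 11.1 FPKM with vehicle. Pmvk, phosphomevalonate kinase, overlapped at 13.2 to 17.3 FPKM with D-serine and 9.68 to 15.4 FPKM with vehicle.

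From squalene to cholesterol, 3 of 9 genes (33.3%) were lower and 0 higher at an unadjusted p under 0.05. The shares of all tested genes were 14.6% and 13.1%. The median log2 difference was -0.035, and -0.13 without vehicle replicate 1. Stard4, a carrier of cholesterol between membranes, was at 6.70, 4.24 and 6.61 FPKM with D-serine and at 13.3, 10.1 and 7.48 FPKM with vehicle. Its vehicle libraries were widely spread but all lay above the D-serine libraries (log2 difference -0.71 ± 0.23 SE, limma adjusted p = 0.11). Sc5d, the lathosterol desaturase near the end of the pathway, was at 15.9, 12.9 and 12.9 FPKM with D-serine and at 17.4, 19.1 and 18.1 FPKM with vehicle (-0.37 ± 0.11, adjusted p = 0.098 in limma), without overlap. Hsd17b7, a ketoreductase of sterol demethylation, overlapped at 3.61, 3.31 and 4.65 FPKM with D-serine and 4.49, 5.67 and 5.11 FPKM with vehicle (-0.33 ± 0.14, limma adjusted p = 0.18). Sqle, squalene epoxidase, a rate-limiting step, was at 19.5, 19.04 and 13.7 FPKM with D-serine and at 21.7, 20.8 and 22.5 FPKM with vehicle. Here too D-serine replicate 3 was the low library, and the groups did not overlap (-0.32 ± 0.14, limma adjusted p = 0.19, and -0.16 without it). The other 5 enzymes, Lss, Tm7sf2, Nsdhl, Ebp and Dhcr7, all overlapped, with log2 differences from -0.04 to 0.17.

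Glycerolipid synthesis split by gene. At an unadjusted p under 0.05, 3 of 5 genes (60%) were lower and 0 higher, against 14.6% and 13.1% of all tested genes. The median log2 difference was -0.34. Gpam, the mitochondrial glycerol-3-phosphate acyltransferase that commits acyl-CoA to glycerolipid, was at 5.01, 3.25 and 9.35 FPKM with D-serine and at 15.5, 13.5 and 11.5 FPKM with vehicle. Its groups did not overlap, although D-serine replicate 3 came near vehicle replicate 3 (log2 difference -1.17 ± 0.30 SE, limma adjusted p = 0.082). Without D-serine replicate 3 it passed limma, at -1.51 (adjusted p = 0.040), and without D-serine replicate 2 it was at -0.87 (adjusted p = 0.15). Lpin1, the phosphatidate phosphatase lipin 1, which also acts as a transcriptional coactivator, was at 17.4, 13.6 and 15.8 FPKM with D-serine and at 27.7, 25.4 and 23.1 FPKM with vehicle. All D-serine libraries lay well below all vehicle libraries (-0.67 ± 0.12, adjusted p = 0.058 in limma). Dgat2, one of the 2 enzymes of the last step to triglyceride, was at 72.2, 70.5 and 70.55 FPKM with D-serine and at 103, 85.9 and 82.9 FPKM with vehicle (-0.34 ± 0.11, limma adjusted p = 0.11). The D-serine libraries lay almost on 1 level, below all vehicle libraries. Dgat1, the unrelated enzyme of the same step, overlapped at 21.02 to 23.6 FPKM with D-serine and 19.4 to 22.4 FPKM with vehicle, and so did Agpat2, at 25.9 to 31.2 FPKM with D-serine and 25.3 to 29.1 FPKM with vehicle. The ratio of Dgat2 to Dgat1 was 3.06, 3.24 and 3.36 with D-serine and 5.31, 4.05 and 3.71 with vehicle.

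Ratios between related genes were computed for 6 pairs, chosen with the values known. The groups stood apart for Fads2 over Fads1, Dgat2 over Dgat1 and Acacb over Acaca, each with an exact two-sided permutation p of 0.1, the smallest that 3 against 3 libraries can give (adjusted p = 0.2 over the 6 pairs). For Scd1 over Scd2 the exact permutation p was 0.2. With 6 pairs picked in this way and no smaller p possible, these ratios are a description of the 6 libraries.

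Which D-serine library stood lowest was not the same for all genes. Of the 39, replicate 2 was the lowest D-serine library in 19, replicate 3 in 17 and replicate 1 in 3. Among the 16 genes lower at an unadjusted p under 0.05, replicate 2 was the lowest D-serine library in 13, including Acly, Acss2, Fads2, Idi1 and Gpam. How often replicate 2 was lowest over all tested genes was not counted, so these counts cannot be read as particular to the 39. Without D-serine replicate 2, 11 of the 39 were lower at an unadjusted p under 0.05, against 11.3% of all tested genes. Replicate 3 was the lowest for Srebf1, Insig1, Sqle, Hmgcs1 and Scd2, where the other D-serine libraries were near the vehicle level. Mean log2(FPKM + 1) over the 39 genes was 4.33, 4.10 and 4.15 in D-serine replicates 1 to 3 and 4.41, 4.45 and 4.42 in vehicle replicates 1 to 3, so the vehicle libraries varied less than the D-serine libraries.

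**Figure D3:**
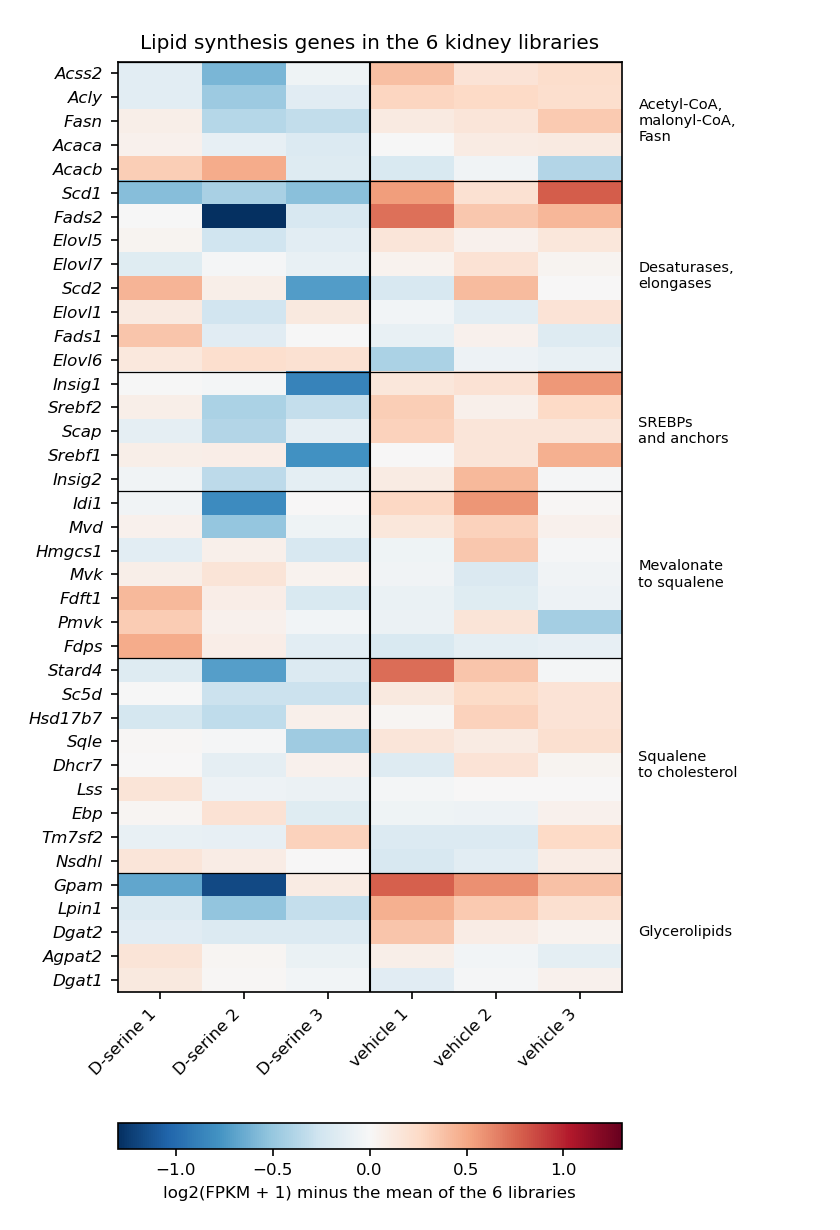
Each gene (rows, by role) in each library (columns), coloured by log2(FPKM + 1) minus the mean of the 6 libraries. Blue cells gather on the D-serine side in the acetyl-CoA, SREBP and glycerolipid blocks, with the deepest for Fads2 and Gpam in replicate 2, and Srebf1 and Insig1 are deep blue in replicate 3 alone.

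Upstream sequence was read for the genes with a RefSeq window, since SREBPs act at promoters together with NF-Y and Sp1. Of the 39 genes, 30 matched by symbol, and 6 windows of the 250 bases before the start are printed, chosen with the values known. They belong to the gene with the smallest p in each role group among those with 1 window clear of the annotated gene, of which the SREBP group had none, and to Hmgcs1. They are given 5′ to 3′ on the strand of the gene (GRCm38.p6). Capitals mark 4 motifs, searched on both strands: TCACNCCAC, a sterol regulatory element; CCAAT, the NF-Y box; CACGTG, the E-box; and GGGCGG, the GC box of Sp1.
Acly: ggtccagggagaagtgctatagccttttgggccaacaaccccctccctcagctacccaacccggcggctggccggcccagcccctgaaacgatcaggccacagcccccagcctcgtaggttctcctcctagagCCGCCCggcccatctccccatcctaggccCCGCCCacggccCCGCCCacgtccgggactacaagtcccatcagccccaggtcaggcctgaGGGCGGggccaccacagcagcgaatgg
Elovl7: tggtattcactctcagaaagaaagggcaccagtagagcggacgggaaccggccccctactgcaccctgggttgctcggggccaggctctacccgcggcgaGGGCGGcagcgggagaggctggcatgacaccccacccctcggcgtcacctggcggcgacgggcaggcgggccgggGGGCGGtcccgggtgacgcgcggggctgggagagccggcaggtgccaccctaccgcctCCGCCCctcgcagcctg
Mvd: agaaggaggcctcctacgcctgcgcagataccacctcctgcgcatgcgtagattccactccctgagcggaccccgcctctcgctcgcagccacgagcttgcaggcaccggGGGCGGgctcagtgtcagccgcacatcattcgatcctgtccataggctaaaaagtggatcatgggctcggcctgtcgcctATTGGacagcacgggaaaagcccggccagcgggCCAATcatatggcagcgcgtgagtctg
Sc5d: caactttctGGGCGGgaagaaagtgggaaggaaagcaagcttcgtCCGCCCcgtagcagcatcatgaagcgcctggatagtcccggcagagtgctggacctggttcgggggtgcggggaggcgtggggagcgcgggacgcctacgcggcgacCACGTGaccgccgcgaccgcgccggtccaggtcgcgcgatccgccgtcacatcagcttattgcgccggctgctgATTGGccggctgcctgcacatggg
Lpin1: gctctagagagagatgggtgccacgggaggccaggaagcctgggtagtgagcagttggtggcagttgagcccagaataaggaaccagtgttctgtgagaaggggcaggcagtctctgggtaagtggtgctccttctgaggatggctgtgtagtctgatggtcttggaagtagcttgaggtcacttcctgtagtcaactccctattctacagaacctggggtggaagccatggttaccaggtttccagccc
Hmgcs1: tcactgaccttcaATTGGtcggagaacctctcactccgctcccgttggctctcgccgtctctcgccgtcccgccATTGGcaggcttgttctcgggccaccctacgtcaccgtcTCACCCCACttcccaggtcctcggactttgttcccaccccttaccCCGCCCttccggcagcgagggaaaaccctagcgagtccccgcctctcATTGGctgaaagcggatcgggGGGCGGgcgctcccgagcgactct
Acly (chr11:100528001-100528250, minus strand) held 4 GC boxes and none of the other motifs, and Elovl7 (chr13:108214154-108214403, plus strand) held 3 GC boxes. Mvd (chr8:122443423-122443672, minus strand) held 2 CCAAT boxes and 1 GC box, and Sc5d (chr9:42264301-42264550, minus strand) held 1 CCAAT box, 1 E-box and 2 GC boxes. Lpin1 (chr12:16610967-16611216, minus strand) held none of the 4. Hmgcs1 (chr13:119690101-119690350, plus strand) held the sterol element, whose first base lies 137 bases before the start, with 3 CCAAT boxes and 2 GC boxes. No base of these windows lay in more than 1 motif.

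Over the 30 windowed genes, 22 (73.3%) held a CCAAT box, against 40.5% of the 8938 tested genes with a window. A GC box stood in 23 (76.7%, against 64.2%), an E-box in 6 of the 30 (against 10.1%) and the sterol element as spelled in 1, Hmgcs1 (3.33%, against 1.32%). Of the 13 windowed genes that were lower at an unadjusted p under 0.05, 11 held a GC box, 9 a CCAAT box, 4 an E-box and 0 the sterol element. A match describes the letters of a window and is not a bound site, and SREBP elements also occur in spellings that this search did not cover.

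Genes of the same pathways outside the 39 were read from 5 lists with 93 genes, 81 of them tested. Of the 81, 0 passed limma over all genes, and the median log2 difference was -0.14. At an unadjusted p under 0.05, 17 of the 81 were lower and 5 higher, against 14.6% and 13.1% of all tested genes, the shares against which the counts of each list below are to be read. In fatty acid synthesis and activation, Me1, the malic enzyme that supplies NADPH, was at 208, 152 and 209 FPKM with D-serine and at 276, 341 and 290.4 FPKM with vehicle (-0.68 ± 0.15 SE, limma adjusted p = 0.071). Acsl3, an acyl-CoA synthetase of lipid droplets, was at 8.12, 8.43 and 6.52 FPKM with D-serine and at 10.97, 15.2 and 16.99 FPKM with vehicle. Both genes had groups that did not overlap. In sterol synthesis and uptake, Cyp51, the lanosterol demethylase, was at 76.8, 71.4 and 69.5 FPKM with D-serine and at 113, 123 and 87.3 FPKM with vehicle, and Acat2, which makes acetoacetyl-CoA for the mevalonate pathway, averaged 48.4 ± 8.90 and 63.3 ± 4.02 FPKM with D-serine and vehicle (SD, n = 3 each). The list as a whole had 3 of 15 tested genes lower at an unadjusted p under 0.05, near the 14.6% of all tested genes, and 0 higher.

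In glycerolipid and phospholipid synthesis, 5 of 24 tested genes were lower and 4 higher at an unadjusted p under 0.05, shares near the 14.6% and 13.1% of all tested genes. Gk, listed in the files under its older symbol Gyk, encodes glycerol kinase and was at 119, 105 and 141 FPKM with D-serine and at 186, 200.3 and 175 FPKM with vehicle. Chpt1, the cholinephosphotransferase of phosphatidylcholine synthesis, was at 808, 664 and 718 FPKM with D-serine and at 998, 1271 and 1031 FPKM with vehicle, a level above that of any of the 39 genes. Neither overlapped between groups (limma adjusted p = 0.066 and 0.071). The 4 higher genes, named after their values were seen, were Chka and Chkb, the choline kinases, Pcyt2, of phosphatidylethanolamine synthesis, and Agpat4, an acyltransferase. Agpat4 was at 2.09, 2.01 and 1.06 FPKM with D-serine and at 0.747, 0.587 and 0.827 FPKM with vehicle. It reached the mean of 1 FPKM needed for testing only through the D-serine libraries. Its place among the 4 therefore cannot be read as a result. Chkb was at 31.9, 56.6 and 37.7 FPKM with D-serine and at 25.5, 25.1 and 26.7 FPKM with vehicle (log2 difference 0.65 ± 0.20 SE, limma adjusted p = 0.10). Chka and Pcyt2 had log2 differences of 0.50 and 0.38. Lipid synthesis from serine had 6 tested genes, all with log2 differences below 0, where 51.1% of all tested genes lay. The differences ran from -0.36 to -0.08, and only 2 of the 6 genes were lower at an unadjusted p under 0.05. They were Sptlc1, a subunit of serine palmitoyltransferase, which joins serine to palmitoyl-CoA to begin sphingolipids (23.5 ± 2.36 and 30.2 ± 3.71 FPKM with D-serine and vehicle), and Kdsr, the next enzyme (4.16 ± 0.816 and 5.56 ± 0.430 FPKM, SD, n = 3 each). Among 19 tested regulators and lipid droplet genes, 4 were lower and 0 higher. Cd36, the fatty acid uptake receptor, was at 183, 113 and 152 FPKM with D-serine and at 245, 312 and 258 FPKM with vehicle, and Ppara, the nuclear receptor of fatty acid oxidation, at 11.1, 10.6 and 12.9 FPKM with D-serine and 24.5, 16.1 and 18.9 FPKM with vehicle (limma adjusted p = 0.069 and 0.071).

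**Figure D4:**
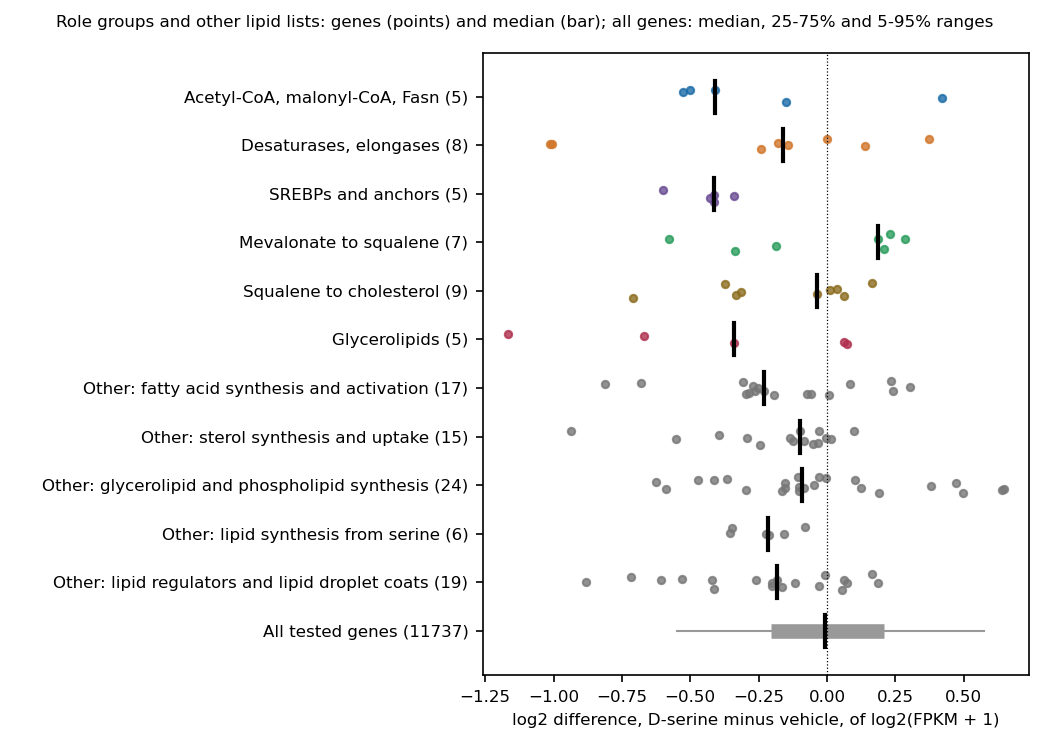
Log2 difference (x axis, D-serine minus vehicle) of the genes of each role group (colours) and each other lipid list (grey), with a bar at the median and the number of genes in brackets. The medians lie between -0.41 and 0.19, against -0.0078 for all tested genes, whose thick band covers the middle 50% and thin line the middle 90%.

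Summed levels of cell type markers also differed between the groups for some lists. The summed level of 9 genes that mark S3, the last proximal tubule segment, was 440.1 to 715 FPKM with D-serine and 990 to 1233 FPKM with vehicle. Of the 8 tested, 6 were lower at an unadjusted p under 0.05, against 14.6% of all tested genes, while Slc5a1 averaged 28.1 and 28.0 FPKM. Cyp7b1 and Slc7a12 of this list are also on the androgen-responsive list, whose median log2 difference was -1.06. For the S1 and S2 segments, 13 markers summed to 8019 to 9501 FPKM with D-serine and 8902 to 10838 FPKM with vehicle, which overlapped. Pck1, Slc34a1 and Miox, averaging 3568, 2271 and 2181 FPKM over the 6 libraries, carried most of that sum. Of the 13, 10 had a log2 difference below 0, where 51.1% of all tested genes lay. At an unadjusted p under 0.05, 1 of the 13 was lower and 0 higher. For principal cells of the collecting duct, 9 markers summed to 684 to 1028 FPKM with D-serine and 465 to 621 FPKM with vehicle, and 11 markers of intercalated cells summed to 401 to 548 FPKM and 327 to 388 FPKM. The 10 markers of cell division summed to 89.6 to 308 FPKM with D-serine and 16.7 to 24.5 FPKM with vehicle, highest in D-serine replicate 1. The part of these shifts in the lipid gene differences was not tested, and in whole kidney RNA fewer cells of a type and less RNA per cell cannot be told apart. Markers of fat and adrenal tissue, which lie against the kidney and make lipid, were read as well, with the limit that a listed 0 can be a failed estimate in these files. Of the adipocyte markers, 9 of 11 stayed under 1 FPKM in all 6 libraries, at most 0.317 FPKM, with Plin1, Lep and Cfd listed at 0 throughout. The other 2, Fabp4 and Gpd1, which endothelium and tubule cells also make, carried nearly all of the list's sum of 156 to 239 FPKM with D-serine and 238 to 263 FPKM with vehicle. They went opposite ways, with D-serine and vehicle means of 19 and 13.5 FPKM for Fabp4 and 187 and 236 FPKM for Gpd1. Of 8 adrenal cortex markers, 7 stayed under 1 FPKM, at most 0.261 FPKM, with Cyp11b1 and Cyp11b2 listed at 0, and Star reached 1.10 FPKM. The adrenal list summed to 0.468 to 1.497 FPKM with D-serine and 0.876 to 1.07 FPKM with vehicle.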

How the data were processed

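The deposited data are FPKM values by gene symbol, 1 table for each of the 6 kidney samples. The submitters' processing notes name TopHat2 2.0.13, Bowtie2 2.2.3, SAMtools 0.1.19 and Cufflinks 2.2.1, and the build mm10. For gene annotation, read length and strand setting the sources used here give nothing, though the library kit keeps strand, per the labels' protocols. Cufflinks can list a gene at 0 where an estimate failed. Rpl26, a gene that cells need, was at 0 in all 6 libraries, and the cause of that 0 was not tested.

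Differences in log2(FPKM + 1) were tested in R 4.3.3 with limma 3.58.1 (eBayes, trend on), 3 D-serine against 3 vehicle libraries, two-sided, with Benjamini-Hochberg adjustment over the 11737 genes averaging 1 FPKM or more and a threshold of 0.05. The pseudocount of 1 understates the difference of low genes. FPKM are not counts, so no count test was run. The code was checked on simulated data with independent normal noise in each gene. Real libraries can depart from that setting, so the check does not show how the calls behave here. Depth was estimated from the spacing of low values and, for its scale, from genes with 1 annotated transcript, so it is rough, and no interval was drawn from it.

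The members and lists were chosen with earlier results of these data known. Values in every library are given for the 3 genes of each role group with the smallest unadjusted p and for Fasn, Acly, Scd1, Srebf1, Srebf2, Insig1, Hmgcs1, Sqle, Gpam and Dgat2, and from each other lipid list the 2 genes with the smallest p are named; Insig2, Fdps, Fdft1 and 4 higher phospholipid genes are given as well, chosen after their values were seen. Of the list genes, 5 were matched through older symbols in RefSeq. Marker lists of thick ascending limb, distal tubule, androgen-responsive, fibroblast, endothelial, leukocyte, podocyte and injury genes were also read. Their median log2 differences were -0.19, 0.29, -1.06, 0.49, 0.36, 0.26, 0.42 and 1.02 in that order, over 7, 7, 7, 8, 8, 6, 5 and 2 tested genes. The 2 tested injury genes were Lcn2 and Spp1, and the other 3 stayed under 1 FPKM in all libraries. Of those, Havcr1 averaged 0.145 FPKM with D-serine and 0.329 FPKM with vehicle. Krt20 (0.239 and 0.133 FPKM) and Vcam1 (0.765 and 0.583 FPKM) lay the other way. Col1a1, Col3a1, Cd68 and Wt1 averaged under 1 FPKM with vehicle and were tested only through their D-serine levels. Transcript length, GC content and gene spans came from GENCODE M21 on mm10, which matched 11309 tested genes (96.4%). The same numbers label replicates in both groups, and libraries with the same number did not deviate together (correlations of -0.070, 0.0031 and 0.067), so no block was used. Libraries were distinct: at most 0.452% of tested values were identical between any 2.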

Additional observations from a re-analysis of the deposited data

How the results depend on the processing

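The count of 0 of the 39 genes passing limma was 2 with a pseudocount of 0.1 or 0.01, a minimum of 5 FPKM, library weights or small RNA genes left out (Scd1 and Lpin1 each time), and ran from 0 to 2 over the fits without 1 library. Over all tested genes, 171, 221, 132, 269 and 332 (1.46, 1.88, 1.61, 2.29 and 2.85%) passed in those 5 fits, and 437 without D-serine replicate 3, where Scd1 and Gpam passed. The count lower at an unadjusted p under 0.05 (16) ran from 10 to 18 over the fits without 1 library, against 8.78 to 16.1% of all tested genes. It was within 1.5 times of 16 in the other fits, against 10.5 to 17.8%. The count higher (1) was 0 with a minimum of 5 FPKM or quantile normalization and 2 with small RNA genes left out. All tested genes stood at 12.8, 13.4 and 13.7% in those fits. Without 1 library the count was 0 to 3, against 8.3 to 14.9% of all tested genes. Genes with every D-serine library above (2) numbered 1 with a minimum of 5 FPKM or after removal of the length and GC trend, against 16.1 and 14.7% of all tested genes. Without 1 library they numbered 2 to 6, against 19.1 to 24.1%. Genes with every D-serine library below (18) numbered 14 with quantile normalization or after removal of the length and GC trend. All tested genes stood at 19.4 and 17.9% in those fits. With a minimum of 5 FPKM the count below was 18 of 35 tested, against 22.9% of all tested genes. It ran from 18 to 21 over the fits without 1 library, against 22.4 to 26.3%. With the replicate number as a block, a number the libraries share in name only, the count higher was 2, against 11.2% of all tested genes. It was 2 again when the length and GC trend was also taken out, against 9.79%. In that last fit the genes with every D-serine library above numbered 1, against 14.7% of all tested genes. Under either block, 0 of the 39 passed limma.

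The median of the 39 genes stayed between -0.32 and -0.16 in all 19 alternatives. Without 1 library, the median ran from -0.55 to -0.33 for acetyl-CoA supply and chain building, 0.049 to 0.21 for mevalonate to squalene, -0.13 to -0.0097 for squalene to cholesterol, -0.27 to -0.10 for the other fatty acid genes, -0.24 to -0.055 for the other sterol genes and -0.11 to -0.037 for the other glycerolipid genes. After removal of the length and GC trend, with or without the replicate block, it was 0.023 for mevalonate to squalene and -0.023 for the other glycerolipid genes, and with no minimum level it was -0.067 for the other fatty acid genes. The cause of these moves was not tested. Of the 31 genes named by the rule, 0 changed sign in the alternatives that gave them a value, which were all 19 except for Elovl6, Hsd17b7 and Kdsr (no value at a minimum of 5 FPKM) and Gk (no value for the 2 fits on the length and GC trend). Depth limits genes under 5 FPKM, such as Elovl6, most.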
